A study of Mus musculus with 6 samples.

Results

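The 55 genes described here carry out chromosomal DNA replication and the passage from G1 into S phase, and they were followed in cultured smooth muscle cells of the mouse pulmonary artery (mPASMCs) after knockdown of the long non-coding RNA *Snhg18*. They were chosen by name for their roles in origin licensing (15 genes), origin firing (8), the replication fork (20), nucleotide supply (4) and control by E2F and RB (8), from the 55487 genes of the deposited count table. All 55 were present and all 55 passed the filter on low counts, among 14531 genes that were tested.

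RNA-seq libraries were made from mPASMCs transfected with a negative control siRNA (si-NC, 3 libraries) or with an siRNA against *Snhg18* (si-*Snhg18*, 3 libraries), each group numbered as repeats 1 to 3. The paper obtained its mPASMCs from a commercial supplier, and it does not say whether both groups came from the same isolate. The oxygen level and the time after transfection for the sequenced cells are not given in the sources used here, and nothing there says whether the repeats were separate cultures, so p-values measure the spread between these libraries, which may be technical. The comparison asks how the replication genes of mPASMCs stood after *Snhg18* was lowered.

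DNA replication is prepared in G1, when the origin recognition complex (ORC), Cdc6 and Cdt1 load the Mcm2 to Mcm7 helicase onto origins. On entry into S phase, the Cdc7-Dbf4 kinase and cyclin-dependent kinases turn the loaded helicase into an active one by joining Cdc45 and the GINS complex to it, and the polymerases, clamp and ligase then copy the strands. Many of these genes are transcribed by E2F factors, which the retinoblastoma protein Rb1 restrains until G1 cyclins and their kinases inactivate it, and in the vessel wall entry of smooth muscle cells into this cycle is part of pulmonary vascular remodeling.

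The targeted transcript was checked before the members. *Snhg18* stood at 23.5, 22.4 and 22.2 CPM (reads scaled to the library size, with TMM factors) in si-NC repeats 1, 2 and 3 and at 10.6, 11.2 and 9.97 in si-*Snhg18*. The groups did not overlap, and the log2 fold change was -1.10 (SE 0.10, adjusted p = 0.00727). The smallest library held 18097718 reads (si-*Snhg18* repeat 3) and the largest 25988746, and single members had between 18 and 4300 reads in a library. Repeat 2 stood apart in both groups: it was the highest si-NC library for 46 of the 55 members (42.2% of all tested genes), the highest si-*Snhg18* library for 48 (43.9%), and the highest of both groups for 43 (32.2%). The summed CPM of 10 smooth muscle markers was 4218 to 4411 in si-NC and 3093 to 4134 in si-*Snhg18*. *Tagln*, an actin-binding protein of smooth muscle, was the marker of the 10 that passed the unpaired test (log2 fold change -0.51, adjusted p = 0.0427). With the repeat number as a block, 7 of the 10 fell, where 13.6% of all tested genes did, and 6 were lower with no overlap between groups (15.5% of all tested genes). Their median log2 fold change was -0.39, further from 0 than the -0.24 of the 55 members, and the difference between the lists was not tested. Of the markers of other cells, 7 endothelial genes summed to 12.5 to 14.0 and 13.4 to 15.4 CPM (*Tie1* and *Emcn* under 10 reads in every library). The 8 leukocyte genes summed to 115 to 158 in si-NC and 74.8 to 115 in si-*Snhg18* (*Adgre1* and *Cd3e* at 0, *Ptprc* under 10 reads). The lower sum was carried by *Cd53* (log2 fold change -1.10), while the median of the 5 leukocyte genes tested was 0.35 and 1 of them, *Cd14*, rose with the block. The 6 epithelial genes summed to 7.24 to 22.7 and 1.19 to 7.42, mostly from *Krt18*, the 1 gene of them that was tested (*Sftpc* and *Nkx2-1* at 0, *Epcam* and *Cdh1* under 10 reads). The 6 fibroblast genes summed to 2285 to 2985 in si-NC and 1416 to 2230 in si-*Snhg18*. These sums are not scaled by length, and they do not tell smooth muscle cells from fibroblasts. The part of smooth muscle state and of these other cells in the results below was not tested.

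The replication genes lay lower in si-*Snhg18* as a group by their counts, by small amounts. The log2 fold change was below 0 for 48 of the 55 members, against 49.2% of all tested genes, and its median was -0.24 over the members and 0.01 over all tested genes. Their CPM summed to 1880, 2129 and 1713 in si-NC repeats 1, 2 and 3 and to 1477, 1905 and 1520 in si-*Snhg18*. The summed levels therefore overlapped between groups, because si-*Snhg18* repeat 2 lay above si-NC repeats 1 and 3. Within each repeat the si-*Snhg18* sum was lower, at 78.6%, 89.5% and 88.8% of the si-NC sum, and the deepest difference was in repeat 1, where 37 of the 55 members also had their lowest ratio. In bulk RNA a smaller share of cells in S phase and less of these transcripts per cell cannot be told apart.

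How many members passed a test depended on whether the repeat number was used. In the unpaired test (edgeR quasi-likelihood, adjusted p under 0.05), 1 member fell and 0 rose, where 3.71% of all tested genes fell and 3.65% rose. At an unadjusted p under 0.05, 10 members were lower (12.1% of all tested genes) and 1 was higher (12.8%). DESeq2, at an adjusted p under 0.05, called 2 lower and 0 higher. Of the 13665 genes that it tested, 6.97% were lower and 913 were higher. With the repeat number as a block, hereafter the paired test, 17 members fell and 1 rose, where 13.6% of all tested genes fell and 13.6% rose. Of these, 7 fell by at least 1.5-fold (5.85% of all tested genes) and 0 rose by as much (4.24%). By simple order, 41 members were lower within all 3 repeats (30% of all tested genes) and 3 were higher (29.6%). Taken over all libraries, 11 members were lower with no overlap between groups (15.5%) and 2 were higher (15.4%). The paired count changed most without repeat 3. Without repeat 1, 16 members fell (15.7% of all tested genes), and without repeat 2, 14 fell (12.3%). Without repeat 3, 1 member fell, and the calls over all tested genes also dropped, to 2.45% lower. In the unpaired test 13 members fell without the si-*Snhg18* library of repeat 2, where the calls over all tested genes also grew, to 11.7% lower. Without any other single library 0 members fell. Of these fits, those without si-NC 1, si-NC 3 or si-*Snhg18* 3 called 0 of all tested genes, so they say nothing about the members. Without si-NC 2 or si-*Snhg18* 1, 0.694% and 1.19% of all tested genes fell.

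**Figure D1:**
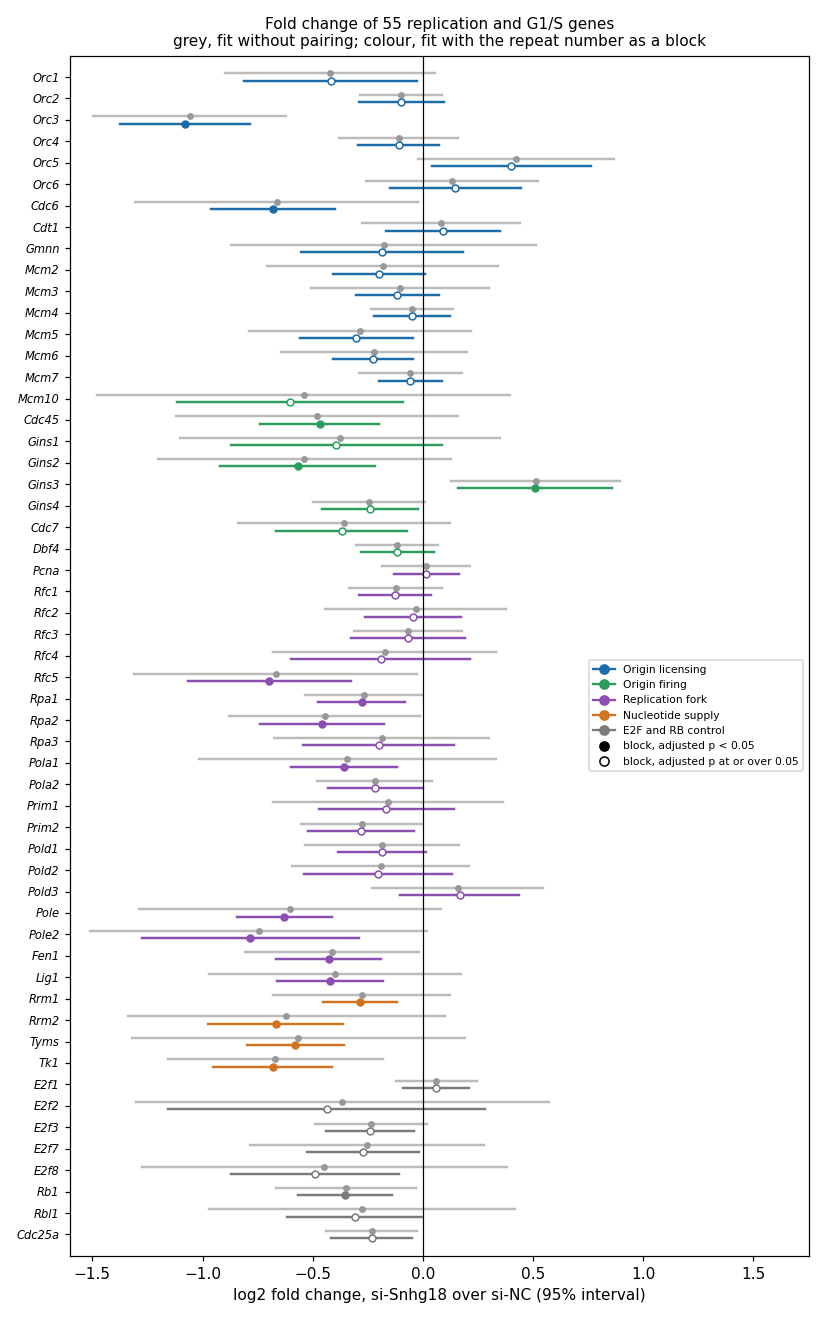
Log2 fold change of each of the 55 members, si-*Snhg18* over si-NC, with its 95% interval; grey points and bars show the unpaired fit and coloured ones the paired fit, filled where the adjusted p was under 0.05. *Orc3* lies farthest to the left at -1.06 (unpaired) and -1.08 (paired), *Pcna* lies at 0.01 and 0.02, and the only filled point to the right of 0 is *Gins3*.

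Among the 15 licensing genes, 2 fell in the paired test, *Orc3* and *Cdc6*, a share near the 13.6% of all tested genes that fell, and the helicase subunits did not pass. *Orc3*, a core subunit of the origin recognition complex (chromosome 4, 34570796 to 34614944, minus strand, GRCm38), had the largest fall of all members. Its level was 34.5, 36.5 and 31.9 CPM in si-NC repeats 1, 2 and 3 and 13.2, 21.1 and 15.1 CPM in si-*Snhg18*. Every si-*Snhg18* library lay below every si-NC library, and the mean fell from 34.3 ± 2.31 to 16.5 ± 4.11 CPM (SD, n = 3), that is to 48.0% of si-NC. The log2 fold change was -1.06 (SE 0.18, adjusted p = 0.0253) in the unpaired test and -1.08 (SE 0.13, adjusted p = 0.00159) in the paired test. An exact permutation test of the group means gave p = 0.1, two-sided, the smallest p that 3 against 3 libraries allow. Any gene whose groups do not overlap gets this value, so it adds nothing to the order of the libraries. *Orc3* passed the paired test without any one of the repeats (adjusted p up to 0.0410). In the unpaired test it passed only without si-*Snhg18* repeat 2 (adjusted p = 0.00474), and leaving out any other library gave 0.0584 to 0.136. Without si-NC 1, si-NC 3 or si-*Snhg18* 3 that test called 0 of all tested genes, so a miss there is not particular to *Orc3*.

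*Cdc6*, the ATPase that works with ORC to load the helicase, stood at 15.5, 20.01 and 12.6 CPM in si-NC and at 8.35, 13.8 and 8.17 CPM in si-*Snhg18*. The groups overlapped, since si-*Snhg18* repeat 2 lay above si-NC repeat 3, but each repeat was lower than its si-NC partner. Its log2 fold change was -0.68 (SE 0.12, adjusted p = 0.00698) in the paired test and -0.66 (adjusted p = 0.189) in the unpaired test. *Cdt1*, the other helicase loader, had levels of 17.8, 24.3 and 18.6 CPM in si-NC and 22.3, 22.8 and 19.1 CPM in si-*Snhg18*. The si-*Snhg18* libraries all lay inside the si-NC range, with a log2 fold change of 0.08 (95% interval -0.28 to 0.44). *Gmnn*, which encodes geminin, the inhibitor of Cdt1, had 8.98, 12.5 and 7.16 CPM in si-NC and 6.29, 11.2 and 7.84 CPM in si-*Snhg18*. Repeat 2 was highest in both groups, and neither test passed (log2 fold change -0.18, 95% interval -0.87 to 0.51).

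The other 5 ORC subunits passed neither test. *Orc1*, the largest ORC subunit and an ATPase, had 9.07, 9.88 and 6.65 CPM in si-NC and 5.50, 7.19 and 6.41 CPM in si-*Snhg18*, and these overlapped (log2 fold change -0.42, adjusted p = 0.25, or 0.107 in the paired test). *Orc5* was higher in every si-*Snhg18* library than in any si-NC library, at 8.82, 14.0 and 11.8 against 8.50, 8.62 and 8.73 CPM, with a log2 fold change of 0.42 that passed neither test over all repeats (adjusted p = 0.222 and 0.0942). It passed the paired test without repeat 1 (adjusted p = 0.00444). *Orc2*, *Orc4* and *Orc6* had log2 fold changes of -0.10, -0.11 and 0.13. Per kilobase of exon, *Orc3* was level with *Orc6* as the most abundant ORC transcripts in si-NC, at 14.9 ± 1.01 and 15.4 ± 3.35 CPM per kb. In si-*Snhg18* it stood at 7.16 ± 1.79 CPM per kb, near *Orc2* at 7.33 ± 0.24. As a share of the 6 subunits' summed level per kb, *Orc3* gave 27.4%, 26.5% and 26.5% in si-NC and 12.5%, 17.9% and 13.4% in si-*Snhg18*.

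The Mcm2 to Mcm7 genes encode the 6 subunits of the replicative helicase, and 0 of 6 passed either test, with log2 fold changes between -0.28 (*Mcm5*) and -0.05 (*Mcm4*). Of all tested genes, 13.6% fell and 13.6% rose in the paired test, and 3.71% and 3.65% in the unpaired test. With 6 genes, 0 calls therefore does not set the helicase apart. *Mcm5* passed the paired test without repeat 2 (adjusted p = 0.0492). *Mcm2* had 65.6, 79.5 and 55.1 CPM in si-NC and 48.2, 77.5 and 50.8 CPM in si-*Snhg18*. The difference within repeats was large in repeat 1 and small in repeats 2 and 3, and the log2 fold change was -0.18 (95% interval -0.71 to 0.34). The narrowest interval of the 6 was that of *Mcm4*, -0.23 to 0.14. At an unadjusted p under 0.05, 5 of the 15 licensing genes were lower in the paired test and 1 was higher, against 20% of all tested genes in each direction. Over the 13 licensing genes that passed neither test, log2 fold changes ran from -0.42 to 0.42.

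**Figure D2:**
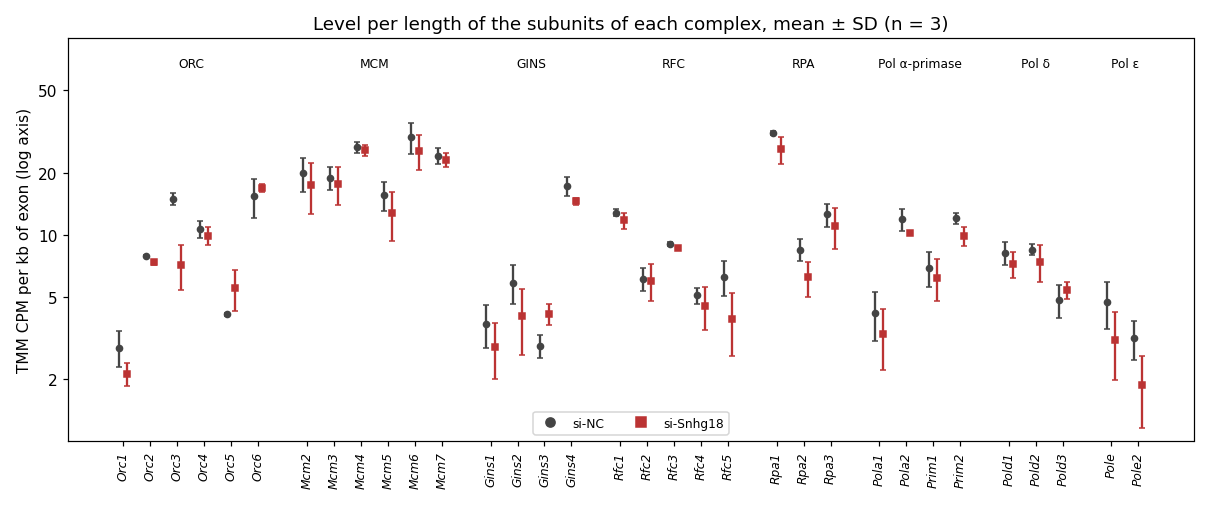
Mean level per length (TMM CPM per kb of exon, log axis) of the subunits of each replication complex, with SD over 3 libraries; black circles show si-NC and red squares si-*Snhg18*. The *Orc3* points lie apart (14.9 and 7.16 CPM per kb) while the error bars of the groups overlap for each of the 6 MCM subunits.

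Among the 8 genes of origin firing, 2 fell (25%) and 1 rose (12.5%) in the paired test, against 13.6% of all tested genes in each direction. The share that rose was thus near that of all tested genes. In the unpaired test 0 passed, where 3.71% of all tested genes fell and 3.65% rose. *Cdc45*, the helicase cofactor, had 12.3, 18.8 and 10.6 CPM in si-NC and 8.90, 12.6 and 8.33 CPM in si-*Snhg18*. Repeat 2 was again highest in both groups, so the groups overlapped, and the log2 fold change was -0.47 (SE 0.11, adjusted p = 0.0228) in the paired test and -0.48 (adjusted p = 0.318) in the unpaired test. The GINS complex, which binds Cdc45 and the helicase, split: *Gins2* fell from 22.8 ± 4.84 to 15.7 ± 5.53 CPM (paired log2 fold change -0.57, adjusted p = 0.0297) and *Gins3* rose from 7.27 ± 0.95 to 10.4 ± 1.25 CPM (0.51, adjusted p = 0.0417).

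*Gins3* was the only member that rose, with 7.30, 8.21 and 6.31 CPM in si-NC and 11.8, 9.46 and 9.86 CPM in si-*Snhg18*. Every si-*Snhg18* library lay above every si-NC library, while the unpaired test gave adjusted p = 0.112. In the paired test *Gins3* passed without repeat 2 (adjusted p = 0.0248) and not without repeat 1 or 3 (highest adjusted p = 0.257). *Gins1* and *Gins4* passed neither test, with log2 fold changes of -0.38 and -0.24. Per kilobase, *Gins4* held 58.2% ± 2.30 of the GINS sum in si-NC and 57.0% ± 3.06 in si-*Snhg18*, and *Gins3* held 9.77% ± 0.48 and 16.3% ± 3.20 (SD, n = 3). *Cdc7*, the kinase that fires origins, had a log2 fold change of -0.36, its activator *Dbf4* -0.12, and *Mcm10*, a helicase activator, -0.54, and all 3 passed neither test. The 95% interval for *Mcm10* was wide, -1.48 to 0.40, on 123 to 392 reads per library.

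Of the 20 fork genes, 8 fell (40%) and 0 rose in the paired test, against 13.6% of all tested genes in each direction. In the unpaired test 0 of 20 passed, where 3.71% of all tested genes fell and 3.65% rose. The catalytic subunit of the leading-strand polymerase, *Pole*, had 29.6, 43.4 and 27.7 CPM in si-NC and 17.7, 31.2 and 17.2 CPM in si-*Snhg18*. Within each repeat si-*Snhg18* was lower by a similar ratio (log2 ratios -0.74, -0.47 and -0.68), although repeat 2 of si-*Snhg18* lay above 2 of the si-NC libraries. Its paired log2 fold change was -0.63 (SE 0.09, adjusted p = 0.00355) and its unpaired adjusted p was 0.252. The partner subunit *Pole2* was at 5.05, 6.62 and 4.36 CPM in si-NC and 2.14, 4.498 and 2.90 CPM in si-*Snhg18*, from 53 to 162 reads, and fell by 0.78 on the log2 scale in the paired test (SE 0.21, adjusted p = 0.0316). Per kilobase *Pole* held 59.8% ± 1.39 of the sum of these 2 subunits in si-NC and 62.4% ± 3.94 in si-*Snhg18*, a difference within the spread. Of the polymerase that starts each strand, the catalytic subunit *Pola1* fell (paired log2 fold change -0.36, adjusted p = 0.0397). *Pola1* passed the paired test in 0 of 3 fits that left out a repeat (adjusted p 0.0622 to 0.174). *Pola2* and the primase subunits *Prim1* and *Prim2* passed neither test. The 3 measured subunits of the lagging-strand polymerase passed neither test, with log2 fold changes of -0.18 for *Pold1*, -0.19 for *Pold2* and 0.16 for *Pold3*.

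*Pcna*, the sliding clamp that holds the polymerases on DNA and the usual protein marker of proliferating cells, showed no detectable difference. It stood at 107, 116 and 98.0 CPM in si-NC and at 113, 108 and 103 CPM in si-*Snhg18*. Every si-*Snhg18* library lay within the si-NC range, and the log2 fold change was 0.01 (95% interval -0.19 to 0.21) in the unpaired test and 0.02 (-0.13 to 0.16) in the paired test. It was the most abundant member per length, at 70.4 ± 5.95 and 71.1 ± 3.48 CPM per kb, and at 1876 to 2865 reads per library it was counted deeply. Of the RFC clamp loader, *Rfc5* fell and the others did not pass. *Rfc5* had 18.6, 19.97 and 13.6 CPM in si-NC and 8.47, 15.2 and 9.10 CPM in si-*Snhg18*, with overlap through repeat 2 and a paired log2 fold change of -0.70 (SE 0.16, adjusted p = 0.0171). *Rfc1* to *Rfc4* had log2 fold changes between -0.17 and -0.03.

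The enzymes that finish the lagging strand fell together in the paired test. *Fen1*, the flap nuclease, had 36.3, 38.8 and 31.7 CPM in si-NC and 23.2, 33.2 and 23.7 CPM in si-*Snhg18*. *Lig1*, the ligase that seals Okazaki fragments, had 32.6, 42.2 and 29.2 CPM in si-NC and 20.5, 35.3 and 23.0 CPM in si-*Snhg18*. In both genes repeats 1 and 3 of si-*Snhg18* lay below all si-NC libraries and repeat 2 did not. The paired log2 fold changes were -0.43 (SE 0.10, adjusted p = 0.0200) for *Fen1* and -0.42 (SE 0.10, adjusted p = 0.0218) for *Lig1*, and the unpaired adjusted p was 0.184 and 0.349. Of the single-strand binding complex RPA, *Rpa1* and *Rpa2* fell in the paired test (log2 fold changes -0.28 and -0.46, adjusted p = 0.0466 and 0.0293), without overlap between groups in either, and *Rpa3* did not pass (-0.20, adjusted p = 0.345).

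All 4 genes of nucleotide supply fell in the paired test (13.6% of all tested genes) and 0 of 4 in the unpaired test (3.71%). Their median log2 fold change was -0.59, the lowest of the roles, beside -0.37 for firing, -0.27 for E2F and RB control, -0.21 for the fork and -0.11 for licensing, and whether the roles differ was not tested. *Tk1*, the thymidine kinase of the salvage route, had 27.5, 32.0 and 22.9 CPM in si-NC and 14.0, 21.9 and 15.8 CPM in si-*Snhg18*. It was the gene of the 4 whose groups did not overlap, with a paired log2 fold change of -0.68 (SE 0.12, adjusted p = 0.00588) and an unpaired one of -0.67 (SE 0.20, adjusted p = 0.104). *Tyms*, the thymidylate synthase, had 22.0, 34.1 and 18.8 CPM in si-NC and 13.7, 23.8 and 13.0 CPM in si-*Snhg18*, a paired log2 fold change of -0.58 (SE 0.09, adjusted p = 0.00511). The small subunit of ribonucleotide reductase, *Rrm2*, had 61.0, 77.8 and 50.7 CPM in si-NC and 28.6, 60.1 and 34.4 CPM in si-*Snhg18*. Here repeat 1 fell the most (log2 ratio -1.09) and repeat 2 the least (-0.37), and the paired log2 fold change was -0.67 (SE 0.13, adjusted p = 0.0103). The large subunit *Rrm1* fell less, from 151 ± 22.8 to 124 ± 24.3 CPM (paired log2 fold change -0.29, SE 0.07, adjusted p = 0.0245).

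**Figure D3:**
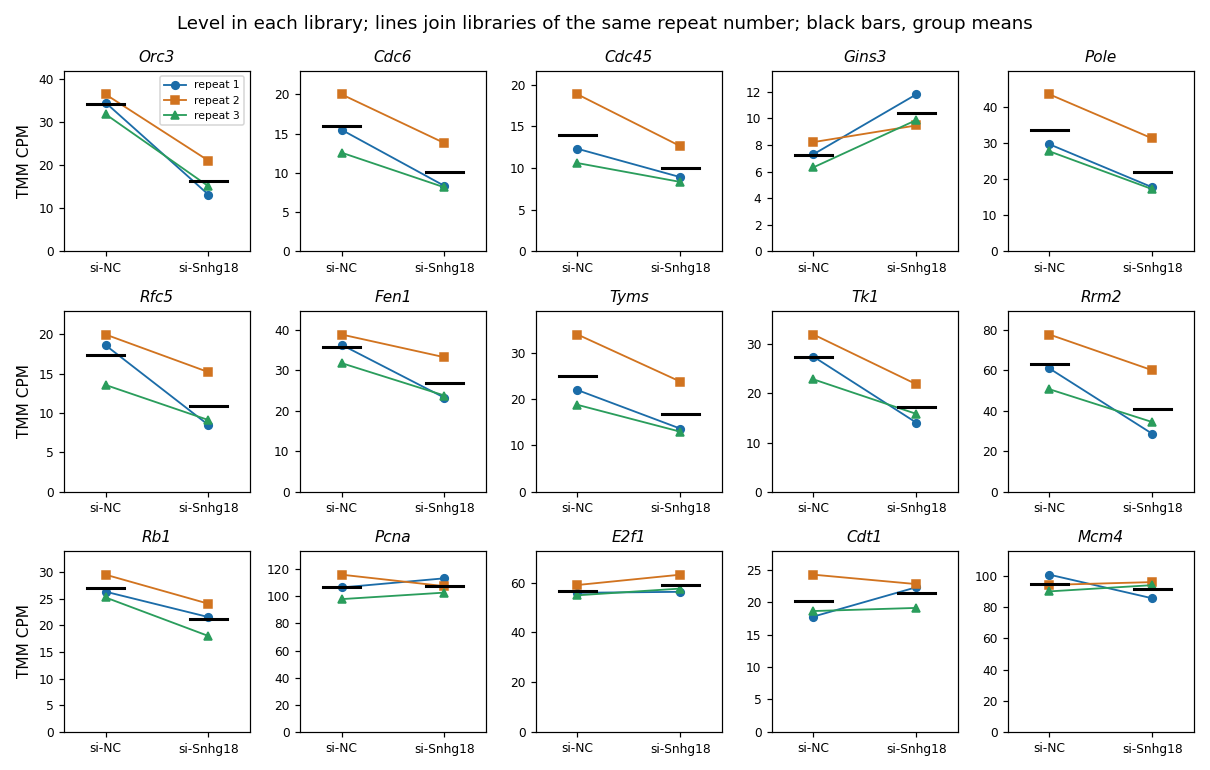
TMM CPM of 15 members in each library, with lines joining the si-NC and si-*Snhg18* libraries of the same repeat number and black bars at the group means; each vertical axis starts at 0. Lines of the called genes that fell run down with repeat 2 above the others. They run side by side in *Pole*, *Tyms* and *Cdc6*, while repeats 1 and 3 cross in *Orc3*, *Rfc5*, *Fen1*, *Tk1* and *Rrm2*. Lines of *Gins3* run up, and those of *Pcna*, *E2f1*, *Cdt1* and *Mcm4* cross or stay level.

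Of the 8 genes that control E2F, 1 fell in the paired test, a share near the 13.6% of all tested genes, and 0 passed the unpaired one. That gene was *Rb1*, the restraining partner of E2F, at 26.3, 29.5 and 25.2 CPM in si-NC and 21.5, 24.0 and 17.97 CPM in si-*Snhg18*. Every si-*Snhg18* library lay below every si-NC library, and the paired log2 fold change was -0.35 (SE 0.09, adjusted p = 0.0270, unpaired 0.169). Its relative *Rbl1* passed neither test (-0.28, 95% interval -0.97 to 0.42). *E2f1*, an activating factor, had 55.9, 59.1 and 54.95 CPM in si-NC and 56.3, 63.2 and 57.6 CPM in si-*Snhg18*. The groups overlapped, si-*Snhg18* was higher within every repeat by a small amount, and the log2 fold change was 0.06 (95% interval -0.12 to 0.24). *E2f8*, a repressive factor that is itself a target of E2F, had 14.6, 20.6 and 11.8 CPM in si-NC and 7.44, 16.99 and 9.97 CPM in si-*Snhg18*, and its paired log2 fold change of -0.49 missed the threshold (adjusted p = 0.0613). *E2f2*, *E2f3* and *E2f7* passed neither test, with log2 fold changes of -0.37, -0.24 and -0.25, and *E2f2* rested on 18 to 58 reads per library. *Cdc25a*, the phosphatase that activates Cdk2, had 40.2, 38.1 and 35.4 CPM in si-NC and 31.9, 33.8 and 30.9 CPM in si-*Snhg18*, without overlap, and a paired log2 fold change of -0.23 that missed the threshold (adjusted p = 0.0666). Over the whole set, 37 of the 55 members passed neither test, with log2 fold changes from -0.54 to 0.42.

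The promoters of the members were read because members of this set share E2F control. RefSeq windows of 300 bases (250 before to 50 after the annotated start, GRCm38.p6) were matched by symbol for 46 of the 55 members, 57 windows in all. The E2F letters searched on both strands were TTTCCCGC, TTTCGCGC, TTTGCCGC and TTTGGCGC. At least 1 of them was found for 20 of the 46 members (43.5%), against 4.64% of the tested genes with a window and 2.60% of all genes with one. Counted by window, the share was 35.1% of the members' windows and 2.26% of all 32851. The 250 bases before the *Orc3* start, chr4:34614943-34615192 on the minus strand, are shown because *Orc3* fell the most. Capitals mark the E2F letters.
Orc3: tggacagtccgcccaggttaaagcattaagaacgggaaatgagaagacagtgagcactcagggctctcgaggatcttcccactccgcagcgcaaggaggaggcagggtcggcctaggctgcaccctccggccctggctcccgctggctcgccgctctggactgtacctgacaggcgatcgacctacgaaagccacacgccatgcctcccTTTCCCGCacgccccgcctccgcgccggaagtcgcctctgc

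The next lines set the E2F letters, with 10 bases on each side, of the other members that carried them and passed the paired test beside those of *Cdt1* and *Mcm6*, which did not pass. Each is written on the strand of its gene, and capitals mark the 8 letters, which read GCGGGAAA, GCGCCAAA or GCGCGAAA where the match is on the opposite strand.
Cdc6: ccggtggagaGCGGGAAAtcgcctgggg
Pola1: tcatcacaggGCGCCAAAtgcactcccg
Pole2: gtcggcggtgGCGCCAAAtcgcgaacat
Lig1: gccaaagtgcGCGCGAAAtctgtgtggc
Gins3: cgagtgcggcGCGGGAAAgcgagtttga
Cdt1: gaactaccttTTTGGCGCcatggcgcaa
Mcm6: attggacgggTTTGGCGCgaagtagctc

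These stretches lie at chr11:98908003-98908030 (*Cdc6*, plus strand), chrX:93632276-93632303 (*Pola1*, minus), chr12:69228163-69228190 (*Pole2*, minus), chr7:13278842-13278869 (*Lig1*, plus), chr8:95633508-95633535 (*Gins3*, plus), chr8:122568037-122568064 (*Cdt1*, plus) and chr1:128359735-128359762 (*Mcm6*, minus). The first capital lies 41 bases before the start in *Orc3* and in *Gins3* (the member that fell the most and the member that rose), 138 before it in *Cdc6* and *Pola1*, and 10 bases after it in *Pole2*. *Mcm6* held 3 matches, of which 1 pair overlaps. Calls were made among members with and without the letters, in the paired test where 13.6% of all tested genes fell and 13.6% rose. Of the 20 with them, 5 fell and 1 rose in the paired test with a median log2 fold change of -0.24. Of the 26 without them, 9 fell and 0 rose with a median of -0.21, and all 4 nucleotide supply genes were among these 9. Of the 9 members without a window, 3 fell. The CHR letters TTTGAA and TTCGAA, an element of genes expressed in G2 and M phase, were in 22.8% of the members' windows, 13.9% of those of the tested genes and 19.2% of all, and CCAAT was in 54.4%, 37.8% and 37.4%. The base composition differed little from that of other tested genes, with a median of 61.3% G and C in the members' windows and 60.7% in those of the tested genes. A match is a run of letters and says nothing about binding.

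The other genes of the cycle were counted from lists drawn up by function. Of 50 further replication genes, 16 fell (32%) and 1 rose (2%) in the paired test, against 13.6% of all tested genes in each direction. In the unpaired test 0 passed, where 3.71% of all tested genes fell and 3.65% rose. At an unadjusted p under 0.05 in that test, 7 were lower (14%), near the 12.1% of all tested genes. At the same threshold 1 was higher (2%), against 12.8% of all tested genes. Their median log2 fold change was -0.27, close to the members' -0.24. Those named here are among the genes with the smallest paired p, and *Dut* and *Rrm2b* also serve nucleotide supply. *Dut*, the dUTPase, had 31.1, 37.9 and 30.3 CPM in si-NC and 15.9, 24.6 and 19.6 CPM in si-*Snhg18*, without overlap (paired log2 fold change -0.74, adjusted p = 0.00290). *Rrm2b*, the p53-induced subunit of ribonucleotide reductase, fell by 0.72 on the log2 scale (adjusted p = 0.00588). The paired log2 fold change was -0.55 for the repressive factor *E2f6*, -0.84 for *Fbxo5*, an inhibitor of the anaphase-promoting complex, and -0.60 for the topoisomerase *Top2a*. The gene that rose, *Top1*, another topoisomerase, was named after its values were seen (paired log2 fold change 0.21, adjusted p = 0.0342).

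Of 19 cyclins, cyclin-dependent kinases and their inhibitors, 2 fell and 1 rose in the unpaired test, where 3.71% of all tested genes fell and 3.65% rose. In the paired test 13 fell (68.4%) and 3 rose (15.8%), against 13.6% of all tested genes in each direction. The share that rose was near that of all tested genes. The median log2 fold change of the list was -0.49. The 3 unpaired calls act on the step before E2F release. *Cdk4*, the kinase that first phosphorylates Rb1, was at 283, 279 and 288 CPM in si-NC and 218, 225 and 220 CPM in si-*Snhg18*, with a small spread in both groups (log2 fold change -0.36, adjusted p = 0.0208). *Cdkn2b*, an inhibitor of Cdk4, rose from 24.8, 24.2 and 25.6 to 64.3, 38.1 and 54.4 CPM (log2 fold change 1.07, adjusted p = 0.0264), and *Cdkn2d*, another inhibitor of the same kinase, fell (-0.59, adjusted p = 0.0216). Of the D cyclins, the partners of Cdk4, *Ccnd1* was at 419, 721 and 345 CPM in si-NC and 63.7, 292 and 104 CPM in si-*Snhg18*, without overlap (paired log2 fold change -1.90, adjusted p = 0.00196, unpaired adjusted p = 0.142), and *Ccnd2* fell by 0.78 on the log2 scale in the paired test (adjusted p = 0.000857). The mitotic cyclin *Ccnb1* fell by 0.82 (adjusted p = 0.00369). The other members of this list that rose in the paired test, *Ccnd3* and *Cdkn2a*, were named after their values were seen, both with a log2 fold change of 0.21.

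The 32 mitotic genes were lower within all 3 repeats for 32 of 32 (30% of all tested genes). In the paired test 26 fell (13.6% of all tested genes), and in the unpaired test 0 fell (3.71%). At an unadjusted p under 0.05 in the unpaired test, 13 were lower (12.1% of all tested genes). Their median log2 fold change was -0.60, further from 0 than the members' -0.24, and the difference between the lists was not tested. Repeat 2 was the highest library of both groups for 32 of 32 (32.2% of all tested genes). The 6 with the smallest paired p were *Prc1* and *Kif20a* of the central spindle, *Anln* of the cytokinetic ring, the centromeric histone *Cenpa* and the kinetochore genes *Nuf2* and *Bub1*, at 55.3% to 62.7% of si-NC. The summed mitotic CPM was 1459, 1888 and 1336 in si-NC and 770, 1425 and 902 in si-*Snhg18*, that is 52.8%, 75.5% and 67.5% within repeats 1, 2 and 3, where the replication members stood at 78.6%, 89.5% and 88.8%.

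**Figure D4:**
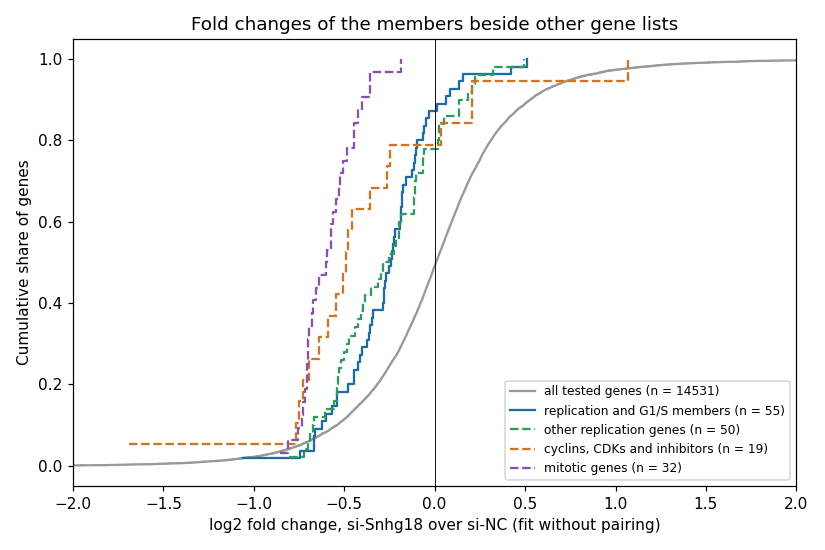
Cumulative share of genes against the log2 fold change (unpaired fit, si-*Snhg18* over si-NC) for the 55 members, 50 further replication genes, 19 cyclins, kinases and inhibitors, 32 mitotic genes and all 14531 tested genes. The curve of all tested genes crosses the middle near 0, those of both replication lists cross it near -0.24 and -0.27, and that of the mitotic genes at -0.60.

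Reads of overlapping genes limit some of these values. An expressed gene overlaps 15 of the 55 members in the annotation, mostly on the opposite strand, and whether the counting used strand is not given in the sources used here. Of the 18 members called in either test, 7 have such a neighbour: *Cdc45* (*Ufd1*), *Gins2* (*Gse1*), *Rfc5* (*Wsb2*, with up to 6389 reads), *Fen1* (*Tmem258*), *Lig1* (*Zswim9*), *Tk1* (*Afmid*, up to 54 reads) and *Rb1* (*Rcbtb2* and *Lpar6*). The paired log2 fold changes of these neighbours were between -0.35 and 0.29, and 0 of them passed the paired test. *Orc3*, *Cdc6*, *Pole*, *Tyms*, *Rrm2* and *Gins3* overlap no expressed gene.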

How the data were processed

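Gene counts for 6 libraries were read as deposited. The authors made the libraries with a stranded mRNA kit, and the submitters' processing notes name HISAT2 and mm10; the counting program and its strand setting are not given in the sources used here. Genes were kept with filterByExpr (minimum count 10; 14531 of 55487), scaled by TMM and tested with edgeR 4.0.16 (limma 3.58.1, R 4.3.3; quasi-likelihood, Benjamini-Hochberg over all kept genes), with no covariate, and again with the repeat number as a block. Fold changes of the tests used the default prior count of edgeR. Log2 ratios within repeats, the permutation test and the correlations below used log2 CPM with a prior count of 2. CPM values in the text are TMM-scaled and values per kilobase use the exon length in the table. The pairing comes from the repeat numbers in the labels: deviations from the group means correlated between same-numbered libraries across 14531 genes (r = 0.41, 0.74 and 0.36), so the paired value is given beside the unpaired one where the call changed. No source says that a number marks a shared culture.

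Any member could be named; library values were given for members past the unpaired threshold, the 10 smallest paired p-values and 12 preset genes, and those of *Orc5*, *Gins3*, *Pole2* and *Cdc25a* were added after they were seen. From the other lists at most 6 called genes each were named, by paired p. The values of 1 gene of those lists are not reported here. The members and lists were chosen with earlier results of these data known. Alternatives were DESeq2 1.42.0, limma-voom, RLE or total scaling, other filters and leaving out libraries or repeats. The scripts were tested on simulated data. Counts carry at least 18 reads per member and library; precision is limited by 3 libraries per group.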

Additional observations from a re-analysis of the deposited data

How the results depend on the processing

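The members lower at an adjusted p under 0.05 numbered 1 in the unpaired edgeR test, where 3.71% of all tested genes were lower. They numbered 17 with the replicate block (13.6% of all tested genes) and 2 with DESeq2 (6.97%). They numbered 12 with DESeq2 and the block (11.6%) and 17 with limma-voom and the block (13.3%). Members higher, 0 in the unpaired test, numbered 1 with the block in edgeR and in limma-voom (1982 and 2051 of 14531 tested genes). With DESeq2 and the block 0 were higher (1548 of 13668 tested genes). RLE factors, library totals, no filter, a filter of 1 CPM and limma-voom without the block left 1 lower and 0 higher. In these fits 1.89% to 4.44% of all tested genes were lower. Leaving out each library gave 0 to 13 lower and 0 higher without the block, where 0% to 11.7% of all tested genes were lower. With the block, 16, 14 and 1 were lower and 1, 1 and 0 higher without repeat 1, 2 or 3. Of all tested genes, 15.7%, 12.3% and 2.45% were lower in those fits. Without si-NC 1, si-NC 3 or si-*Snhg18* 3 the unpaired test called 0 of all tested genes, so those fits say nothing about the members; a group of 2 libraries shares the spread estimate of the other. The median log2 fold change of the members stayed below 0 in all settings run, from -0.40 to -0.16, and 45 to 50 members were below 0. *Snhg18* kept its direction, -1.14 to -1.06 with a library left out, with the call in 3 of 6 such fits (adjusted p 0.00474 to 0.0703) and in 3 of 3 that left out a repeat. With a library left out, the sign of members near 0 changed, over the ranges -0.0040 to 0.23 for *Cdt1*, -0.44 to 0.064 for *Gmnn*, -0.084 to 0.00025 for *Mcm4*, -0.13 to 0.0016 for *Mcm7*, -0.042 to 0.076 for *Pcna* and -0.19 to 0.11 for *Rfc2*. With the block it changed without repeat 1 for *Cdt1* (-0.036), *Mcm4* (0.038), *Pcna* (-0.028) and *Rfc2* (0.044), and without repeat 3 for *Orc6* (-0.0089) and *Pcna* (-0.010). The cause of these changes was not tested. Of the other comparisons of a member under an alternative, 883 kept direction and call, 88 gained a call and 5, all of *Orc3*, lost it. Among the members that fell with the block, *Orc3* passed in 3 of 3 fits that left out a repeat and *Pola1* in 0. *Cdc45*, *Pole2*, *Rpa2* and *Rb1* passed in 1 of these fits and the rest in 2. Depth limited *E2f2*, *Gins1* and *Pole2* the most, with fewer than 100 reads in at least 1 library.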
